A study of Mus musculus with 16 samples.

Results

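The genes described here are 32 genes of protein folding in the endoplasmic reticulum (ER) and of the disposal of proteins that fail to fold, out of 17097 genes measured in the mouse striatum. They were taken by name from a list of chaperones, co-chaperones, disulfide isomerases, ER stress proteins, degradation factors, stress sensors and translocon subunits, and all 32 were present and tested in every comparison. RNA was measured 2 h after an injection of clozapine N-oxide (CNO, 1 mg/kg) or vehicle, in male C57BL/6J mice aged 63 days that the labels give as wild-type. From each mouse came ribosome-bound RNA, precipitated through a hemagglutinin tag meant for astrocytes (IP), and RNA of the cleared lysate (input). Each injection was given to 4 mice, which makes 4 libraries in each of 4 groups (CNO IP, CNO input, vehicle IP and vehicle input), numbered 2 to 5 in the titles.

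CNO is a synthetic ligand for designer receptors, and the series title names activation of Gi signalling in striatal astrocytes. The sources used here name neither the receptor, nor the carrier of the tag, nor the promoter that drove them, and no group is labelled as CNO without a receptor, so an effect of the receptor and an effect of CNO itself cannot be told apart. The titles carry 8 mouse codes, although the series text counts 4 mice. Should replicates not be separate animals, the spread behind the p-values is that between samples and may be technical. Values are CPM, read counts that the authors scaled to a normalized size of each library, with n = 4 libraries per group throughout. That size was 0.880 to 0.932 times the total reads in IP libraries and 1.08 to 1.14 times the total reads in input libraries. Each adjusted p is from limma with Benjamini-Hochberg adjustment over all genes tested. A gene is said to have risen, fallen or passed when its adjusted p was under 0.05.

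Proteins of the membrane and of the secretory pathway fold in the ER. The chaperone BiP (Hspa5) binds unfolded chains with the help of J-domain co-chaperones, calnexin and calreticulin hold glycoproteins, and protein disulfide isomerases form and rearrange disulfide bonds. Chains that do not fold have their mannose trimmed, are led to the Syvn1 and Sel1l complex in the membrane, and are passed to the proteasome, which is called ER-associated degradation. When unfolded chains gather, 3 sensors, Ern1 (IRE1), Atf6 and Eif2ak3 (PERK), start the unfolded protein response, in which IRE1 splices the mRNA of the transcription factor Xbp1, and cleaved Atf6 and spliced Xbp1 raise the genes of folding and degradation. Values per gene do not show splicing of Xbp1 or cleavage of Atf6. Astrocytes use this machinery for the receptors, transporters, adhesion proteins and matrix factors they make.

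Recovered reads per library were 52.1 to 61.5 M in IP and 32.8 to 40.3 M in input (M, mega), and the fewest reads of any of the 32 genes in a library were 262, for Ern1. All 7 astrocyte markers were higher in IP than in input in vehicle mice and in CNO mice, and all 5 microglia, 5 medium spiny neuron, 4 endothelial and 4 plasma cell markers were lower. Markers of interneurons (4 of 5), ependyma (3 of 3) and oligodendrocytes (3 of 4 in vehicle mice, 4 of 4 in CNO mice) were also higher in IP. In CNO mice 1 interneuron marker was lower. Of 4 fibroblast markers 3 were lower in vehicle mice and in CNO mice, and 1 was higher in CNO mice. Of 2 choroid plexus markers 1 was higher in vehicle mice, and in CNO mice 1 was higher and 1 lower. Between CNO IP and vehicle IP, 1 astrocyte marker fell and none of the markers of the other cell types passed. In such mixed RNA, fewer cells of a type and less RNA per cell cannot be told apart, and neither can more RNA and more ribosomes on the same RNA.

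Promoters of 8 of these genes share a sequence. The genes were listed for roles that Atf6 and Xbp1 are known to raise, so its frequency among them is no independent result. The ER stress response element (ERSE) consists of CCAAT and CCACG with 9 bases of any kind between them, and is known to bind NF-Y at its first block and Atf6 or Xbp1 at its last. It was searched on both strands in the 250 bases before each start site in RefSeq (GRCm38.p6), which held 32 promoters for 28 of the 32 genes and none for Atf6, Manf, Hyou1 and Derl1. The ERSE was found in 8 of the 32 promoters (25%) and in 37 of all 32851 promoters of that length (0.113%). The sites are shown because genes of several roles described next have them in common. Capitals mark the fixed letters of the ERSE, and each site is written 5′ to 3′ in the direction of the motif, with 6 flanking bases.

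Hspa5: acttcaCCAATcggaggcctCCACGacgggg
Calr: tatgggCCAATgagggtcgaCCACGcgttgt
Hsp90b1, distal site: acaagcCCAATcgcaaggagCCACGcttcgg
Hsp90b1, proximal site: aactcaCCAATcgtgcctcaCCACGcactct
Canx: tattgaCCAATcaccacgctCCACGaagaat
Pdia6: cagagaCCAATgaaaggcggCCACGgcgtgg
Dnajc3: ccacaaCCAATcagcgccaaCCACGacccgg
Creld2: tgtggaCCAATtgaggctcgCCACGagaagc
Syvn1: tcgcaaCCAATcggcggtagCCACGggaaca

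In GRCm38.p6 the Hspa5 site lies at chr2:34772019-34772049 on the plus strand, the Creld2 site at chr15:88819514-88819544 on the minus strand and the Canx site at chr11:50325794-50325824 on the minus strand. The ends of the matches nearest to the genes were 26 to 194 bases before the RefSeq start sites. Only exact letters were counted, and by that measure only Hsp90b1 held more than 1 match. Near matches, in Hspa5 or elsewhere, were not counted. Herpud1 held no ERSE but the related ERSE-II, which is ATTGG and CCACG with 1 base between them, a sequence found in 0.0304% of all promoters and printed below in capitals without its central base.

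Herpud1: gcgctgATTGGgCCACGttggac

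The Herpud1 site lies at chr8:94386371-94386393. Of the 28 genes searched, Herpud1 was also the only one with TGATGCAA, an amino acid response sequence found in 0.791% of all promoters. Txndc11 and Txndc5 held TGACGTGG, a core of the element that Xbp1 and Atf6 bind, which stood in 0.563% of all promoters. The ERSE, the ERSE-II and the reverse complement of TGACGTGG all contain CCACG. A match is a description of the letters and was not tested as a binding site.

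The first comparison asks what CNO changed in tagged ribosomes. Chaperones, co-chaperones, secreted ER stress proteins and stress sensors were mostly higher in CNO IP than in vehicle IP, and of 9 degradation genes 4 were. Of the 32 genes 21 rose and 1 fell, where 10.2% of the 15598 genes tested rose and 7.07% fell. Their median log2 fold change was 0.26, and that of all genes tested was -0.01. With the libraries scaled by their upper quartile, 18 rose and 1 fell, while over all genes 1259 rose and 1946 fell in place of 1598 and 1102. In 21 of the 32 genes every CNO IP library lay above every vehicle IP library, and in 1 every CNO IP library lay below, where 12.8% and 10.1% of all genes did so. Most changes were small: 4 genes, Txndc11, Man1b1, Hspa5 and Xbp1, rose at least 2-fold, as did 2.44% of all genes.

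**Figure D1:**
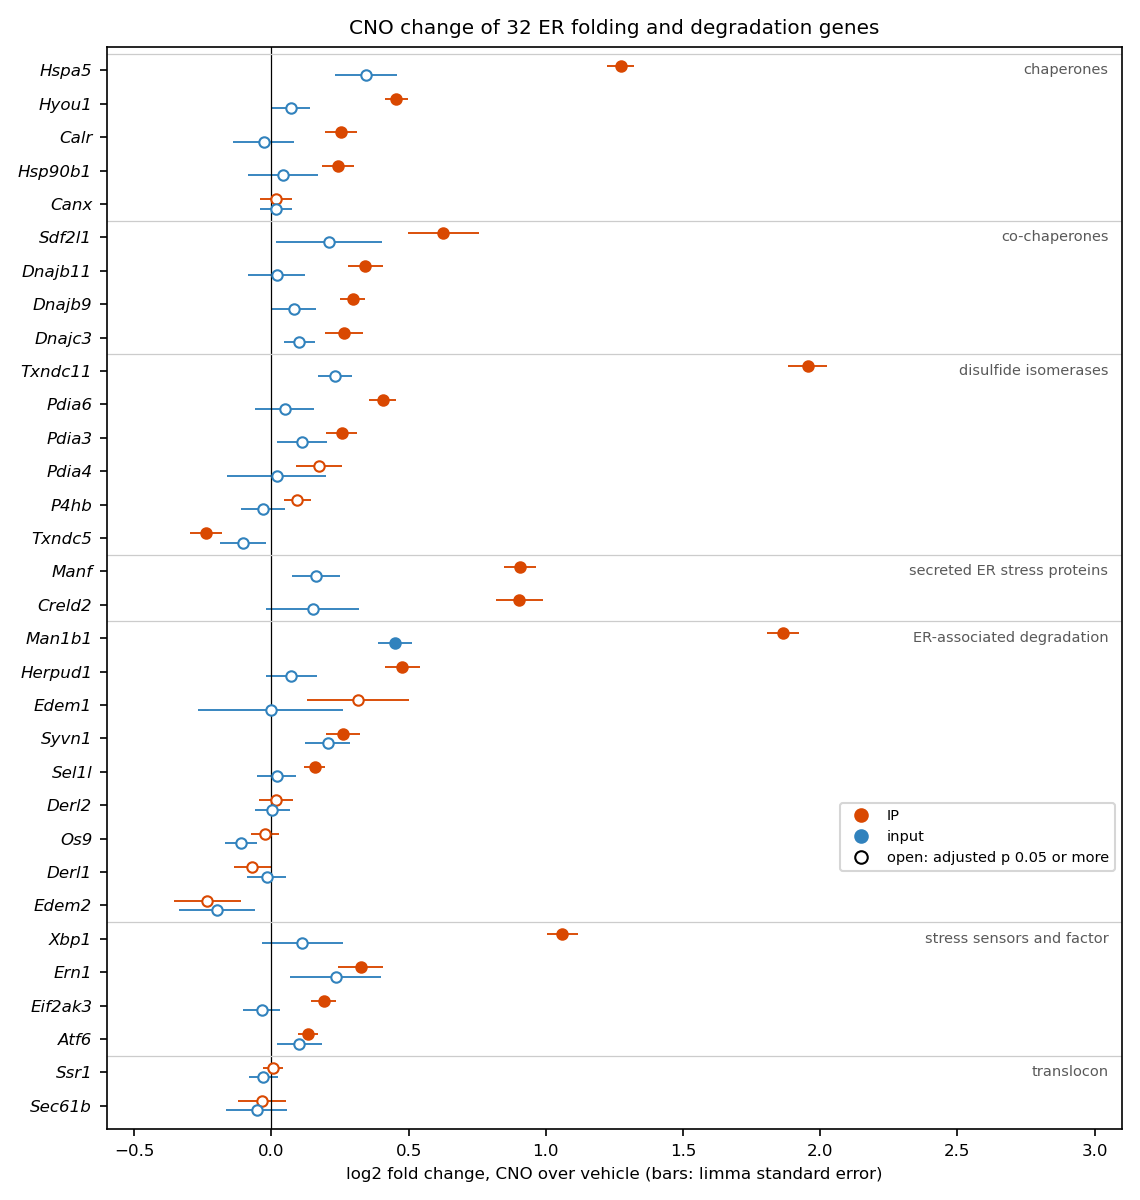
Log2 fold change, CNO over vehicle, of each of the 32 genes in IP (orange) and in input (blue), grouped by role, with the standard error of limma as bars. Filled points had an adjusted p under 0.05. In IP 21 filled points lie to the right of 0 and 1, Txndc5, to the left, and in input only Man1b1 is filled.

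Of the 5 chaperones 4 rose, and Hspa5 rose most. Hspa5, which encodes BiP, stood at 1094, 1052, 1005 and 1036 CPM in CNO IP replicates 2 to 5 and at 444, 428, 412 and 449 CPM in vehicle IP. The lowest CNO library was far above the highest vehicle library. The log2 fold change was 1.27 (SE 0.05, adjusted p = 3.03e-07), a 2.42-fold difference. The promoter of Hspa5 (GRCm38.p6, chr2:34771840-34772089, plus strand) is given over its 250 bases with the ERSE of 19 bases in capitals, since this gene rose most among those with the element. In GENCODE M21 Hspa5 starts at chr2:34771970, so the ERSE lies inside that gene model.

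Hspa5: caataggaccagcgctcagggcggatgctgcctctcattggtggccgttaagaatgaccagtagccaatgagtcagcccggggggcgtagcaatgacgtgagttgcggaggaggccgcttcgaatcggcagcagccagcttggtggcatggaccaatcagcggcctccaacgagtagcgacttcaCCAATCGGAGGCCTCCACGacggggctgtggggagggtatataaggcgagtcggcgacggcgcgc

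Hyou1, a large relative of the Hsp70 chaperones that helps BiP release its nucleotide, stood at 275, 258, 256 and 273 CPM in CNO IP and at 190.0, 196, 194 and 195 CPM in vehicle IP. Its groups did not overlap (log2 fold change 0.46, SE 0.04, adjusted p = 7.20e-05). Hsp90b1, the Hsp90 of the ER, rose by a log2 fold change of 0.24 (SE 0.06, adjusted p = 0.0200), and Calr, the soluble lectin chaperone calreticulin, by 0.25 (SE 0.06, adjusted p = 0.0168). Both calls were lost in some alternatives, to an adjusted p of up to 0.134 for Hsp90b1 and 0.0800 for Calr, with one fit over the 16 libraries. Hsp90b1 also did not pass without vehicle replicate 2 (0.0589) or 4 (0.0650), and Calr without vehicle replicate 4 (0.0564). Canx, the membrane-bound lectin chaperone calnexin and the only ERSE gene here that did not pass, stood at 1184, 1289.7, 1215 and 1199 CPM in CNO IP and at 1181, 1183, 1155 and 1316 CPM in vehicle IP. These values overlapped fully, with a log2 fold change of 0.02 (SE 0.06, adjusted p = 0.901).

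All 4 co-chaperones rose. Sdf2l1, a partner of the co-chaperone Dnajb11, stood at 17.4, 17.9, 17.7 and 19.3 CPM in CNO IP and at 10.8, 10.1, 10.8 and 15.8 CPM in vehicle IP. Vehicle replicate 5 lay closer to the CNO libraries than to the other vehicle libraries, and the groups still did not overlap (log2 fold change 0.63, SE 0.13, adjusted p = 0.0103). The J-domain proteins that stimulate BiP rose less: Dnajb11 by 0.34 (SE 0.06, adjusted p = 0.00639), Dnajb9 by 0.30 (SE 0.05, adjusted p = 0.00224) and Dnajc3 by 0.26 (SE 0.07, adjusted p = 0.0319). Dnajc3 stood at 233, 268, 236 and 232 CPM in CNO IP and at 215, 183, 214 and 195 CPM in vehicle IP. Its call was lost in 8 of 17 alternatives, with adjusted p up to 0.104, among them leaving out CNO replicate 2 (0.0540), CNO replicate 3 (0.0692), CNO replicate 4 (0.0653), vehicle replicate 3 (0.0583) or vehicle replicate 5 (0.0554).

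The disulfide isomerases did not move together: 3 of 6 rose and 1 fell. Txndc11, an ER membrane thioredoxin that works with the mannosidase-like proteins of degradation, had the largest fold change of the 32 genes. It stood at 81.6, 74.1, 72.6 and 90.8 CPM in CNO IP and at 20.5, 21, 20.6 and 19.9 CPM in vehicle IP. Every CNO library was above 3 times the level of the vehicle libraries, and the log2 fold change was 1.95 (SE 0.07, adjusted p = 2.35e-07). Txndc11 overlaps Snn on the opposite strand in GENCODE M21, and the strand setting of the counting is not given in the sources used here. Snn fell in IP, from 125 to 95.1 CPM (log2 fold change -0.39, adjusted p = 3.46e-04), opposite in direction to Txndc11. RefSeq gives Txndc11 2 start sites. The promoter of the first (GRCm38.p6, chr16:11134533-11134782, minus strand) is shown because the gene rose most of all 32 without an ERSE, with TGACGTGG in capitals. The window of the other (chr16:11087931-11088180) held none of the 5 motifs searched. In GENCODE M21 Txndc11 starts at chr16:11134650 on the minus strand, so the TGACGTGG and the other window lie inside that gene model.

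Txndc11: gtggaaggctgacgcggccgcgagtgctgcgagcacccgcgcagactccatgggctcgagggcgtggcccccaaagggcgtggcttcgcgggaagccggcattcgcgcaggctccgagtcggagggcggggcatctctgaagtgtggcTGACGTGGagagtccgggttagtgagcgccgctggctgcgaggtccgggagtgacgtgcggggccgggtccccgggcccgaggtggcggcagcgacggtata

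Pdia6, an isomerase that binds BiP, stood at 167, 168, 161 and 179 CPM in CNO IP and at 131, 124, 121 and 134 CPM in vehicle IP. The groups were apart (log2 fold change 0.41, SE 0.05, adjusted p = 5.95e-04). Pdia3, which works with calnexin and calreticulin on glycoproteins, rose by 0.26 (SE 0.06, adjusted p = 0.0126). Pdia4 (0.17, adjusted p = 0.204) and P4hb, the founding protein disulfide isomerase (0.09, adjusted p = 0.244), did not pass. Txndc5 was the only one of the 32 genes that fell in CNO IP, from 113, 116, 110.0 and 103 CPM in vehicle IP to 96.1, 100.3, 92.7 and 85.4 CPM. The log2 fold change was -0.24 (SE 0.06, adjusted p = 0.0220). Txndc5 holds the same TGACGTGG letters as Txndc11 before 1 of its 3 RefSeq start sites, also inside the GENCODE M21 gene model, and moved the other way. Its call was lost without CNO replicate 4 (adjusted p = 0.0625), vehicle replicate 2 (0.0714) or vehicle replicate 4 (0.0585).

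Both secreted ER stress proteins rose. Manf, a neurotrophic factor that is held in the ER and released under ER stress, stood at 73.8, 74.3, 70.8 and 73.7 CPM in CNO IP and at 40.0, 35.9, 37.6 and 43.0 CPM in vehicle IP (log2 fold change 0.91, SE 0.06, adjusted p = 7.63e-06). Creld2, an ER protein with disulfide isomerase activity that is also secreted, stood at 45.8, 42.7, 41.8 and 44.3 CPM in CNO IP and at 24.8, 19.8, 22.7 and 26.6 CPM in vehicle IP (0.90, SE 0.09, adjusted p = 1.14e-04). In both genes the lowest CNO library was above the highest vehicle library by more than the range within either group.

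**Figure D2:**
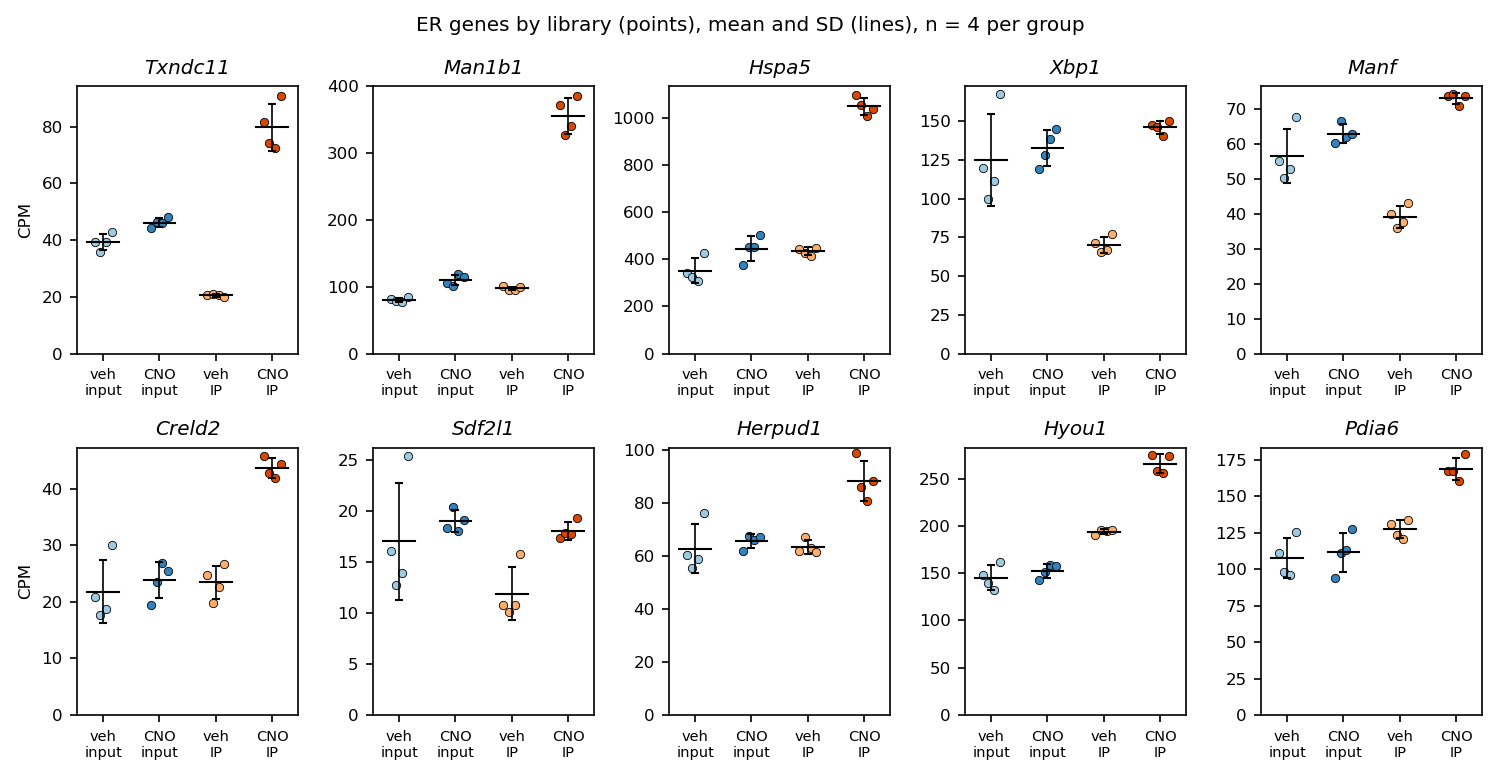
CPM of the 10 genes with the largest fold change among those that passed in IP, by library (points), with the mean and SD of 4 libraries per group (lines); each vertical axis is linear and starts at 0. In all 10 genes the 4 CNO IP points lie above the 4 vehicle IP points, and for Txndc11, Xbp1 and Manf all vehicle IP points lie below all vehicle input points.

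Of the 9 genes of ER-associated degradation 4 rose, by very different amounts. Man1b1, the ER mannosidase that trims the glycans of proteins and so marks them for degradation, stood at 372, 327, 339.7 and 385 CPM in CNO IP and at 100.3, 95.1, 95.6 and 99.2 CPM in vehicle IP. Each CNO library was over 3 times each vehicle library, and the log2 fold change was 1.86 (SE 0.06, adjusted p = 1.14e-07). Its promoter (GRCm38.p6, chr2:25332493-25332742, plus strand) is shown because none of the 5 motifs searched was found in it, although the gene had the next largest rise after Txndc11. In GENCODE M21 Man1b1 starts at chr2:25332338, so this window lies inside that gene model. The bases before the GENCODE start were not searched.

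Man1b1: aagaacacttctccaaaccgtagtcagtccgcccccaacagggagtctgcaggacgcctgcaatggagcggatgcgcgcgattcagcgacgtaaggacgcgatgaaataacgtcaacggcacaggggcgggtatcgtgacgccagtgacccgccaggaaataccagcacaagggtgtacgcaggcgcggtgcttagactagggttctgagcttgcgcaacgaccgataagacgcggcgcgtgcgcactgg

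Herpud1, a membrane protein that organizes the degradation complex, stood at 98.6, 86.1, 80.5 and 88.1 CPM in CNO IP and at 61.7, 67.1, 63.1 and 61.6 CPM in vehicle IP. The groups were apart (log2 fold change 0.48, SE 0.06, adjusted p = 9.13e-04). The core of the same complex moved less: Syvn1, its ubiquitin ligase, rose by 0.26 (SE 0.06, adjusted p = 0.0184) and Sel1l, its scaffold, by 0.16 (SE 0.04, adjusted p = 0.0206). Syvn1 did not pass without CNO replicate 2 (adjusted p = 0.0565) or CNO replicate 5 (0.0503). Sel1l did not pass in 7 of 17 alternatives, with adjusted p up to 0.108, among them CNO replicates 4 and 5 and vehicle replicate 2 left out (0.0517, 0.0507 and 0.0656).

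The other degradation genes did not pass. The log2 fold changes were 0.32 for Edem1 and -0.23 for Edem2, which are mannosidase-like proteins. They were -0.07 for Derl1 and 0.02 for Derl2, which form the membrane channel, and -0.02 for the lectin Os9. The adjusted p of these genes ran from 0.246 to 0.913. Edem1 spread widely in vehicle IP, at 53.2, 40.4, 56.9 and 80.6 CPM, and stood at 61.7, 79.0, 70.6 and 68.8 CPM in CNO IP. Vehicle replicate 5 was the highest of these 8 libraries. Without it Edem1 passed, at a log2 fold change of 0.49 (adjusted p = 0.0325).

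Xbp1 and the 3 sensors rose, Xbp1 most. Xbp1 stood at 148, 146, 140.3 and 149.8 CPM in CNO IP and at 71.1, 65.2, 67.0 and 77.3 CPM in vehicle IP. Its RNA was about at 2-fold (log2 fold change 1.06, SE 0.06, adjusted p = 2.51e-06). Ern1 stood at 17.4, 19.0, 17.5 and 19.8 CPM in CNO IP and at 14, 13.1, 16 and 15.9 CPM in vehicle IP (0.32, SE 0.08, adjusted p = 0.0235). Eif2ak3 stood at 58.8, 58.0, 59.2 and 62.4 CPM in CNO IP and at 52.3, 49.9, 51.9 and 55.0 CPM in vehicle IP (0.19, SE 0.04, adjusted p = 0.0172). Atf6 stood at 135, 134, 136 and 135 CPM in CNO IP and at 125, 118, 127 and 122 CPM in vehicle IP (0.13, SE 0.04, adjusted p = 0.0374). The groups of all 3 sensors were apart by small steps. The Atf6 call was lost in 13 of 17 alternatives, with adjusted p up to 0.204 under upper quartile scaling and from 0.0534 to 0.0989 when any 1 of the 8 libraries was left out. The Ern1 call was lost in 5 of 17 alternatives, with one fit over the 16 libraries (adjusted p = 0.128), with the replicate block (0.0513) and without CNO replicate 3 (0.0631), CNO replicate 5 (0.0633) or vehicle replicate 2 (0.0764). The Eif2ak3 call was lost without vehicle replicate 2 (adjusted p = 0.0539) or 4 (0.0517).

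The translocon subunits, through which chains enter the ER, did not pass. The log2 fold change was -0.03 (SE 0.09) for Sec61b and 0.01 (SE 0.04) for Ssr1. Of the 22 calls in IP, 13 held in all 17 alternatives: Txndc11, Man1b1, Hspa5, Xbp1, Manf, Creld2, Sdf2l1, Herpud1, Hyou1, Pdia6, Dnajb11, Dnajb9 and Pdia3. Among the 28 genes with a promoter in the table, 7 of the 8 with an ERSE rose, with a median of 0.26, and 11 of the 20 without one rose, with a median of 0.22. The strongest changes therefore fell on both sides, with Hspa5 and Creld2 among the genes with an exact match and Txndc11, Man1b1 and Xbp1 among those without. Near matches were not searched, and the window of Man1b1 lay inside its GENCODE gene model.

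In input, the RNA of the whole tissue, the folding genes differed little. Of the 32 genes 1 rose, Man1b1, and 0 fell, where 0.815% and 0.183% of the 15825 genes tested did so, and the median log2 fold change was 0.05 beside -0.02 for all genes. Man1b1 stood at 106, 101, 119 and 114 CPM in CNO input and at 81.2, 78.0, 77.2 and 84.9 CPM in vehicle input. The groups were apart (log2 fold change 0.45, SE 0.06, adjusted p = 0.00581). Txndc11 was the other gene without overlap between the groups, at 44.3, 46.4, 46.0 and 48.2 CPM in CNO input and at 39.4, 35.9, 39.5 and 42.8 CPM in vehicle input (0.23, adjusted p = 0.171). Such separation occurred upward in 3.22% and downward in 4.03% of all genes.

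The stress sensors and Hspa5 overlapped in input. Hspa5 stood at 375, 452, 450 and 501 CPM in CNO input and at 343, 326, 308 and 427 CPM in vehicle input (0.34, SE 0.11, adjusted p = 0.304). Xbp1 stood at 119, 128, 138 and 145 CPM and at 120.0, 100.0, 111 and 167 CPM (0.11, adjusted p = 0.884). Vehicle replicate 5 was the highest of the 8 input libraries for Xbp1 and the highest vehicle library for Hspa5. Canx stood at 547, 556, 553 and 584 CPM in CNO input and at 555, 558, 513 and 592 CPM in vehicle input (0.02, adjusted p = 0.969). Over the 32 genes the log2 fold changes in input ran from -0.20 (Edem2) to 0.45 (Man1b1).

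The input libraries of 1 injection differed among themselves in ER genes. Vehicle input replicate 5 was the highest of its group for 29 of the 32 genes, while 33.0% of all genes were highest there. It lay above the mean of the 8 input libraries for 31 of 32, by a median of 0.17 on the log2 scale. The summed CPM of 4 plasma cell markers (Igj, Mzb1, Derl3 and Tnfrsf17), secretory cells rich in ER chaperones, was 708 in that library and 300.2, 60.0 and 231 in vehicle input replicates 2, 3 and 4. Most of each sum came from Igj alone, at 669 CPM in replicate 5 and 55.1 CPM in replicate 3. Vehicle input replicate 3, with the lowest sum, held the lowest value of 19 of the 32 genes. Against the mean of the other vehicle input libraries, its median log2 difference was -0.17 over the 32 genes and 0.02 over all genes. For vehicle input replicate 4, whose marker sum was 231 CPM, the same differences were -0.14 and -0.03. The low standing of the 32 genes was thus not limited to the library with the lowest marker sum. The CNO input libraries held 159, 282, 311 and 308 CPM, and replicate 2, with the lowest of these sums, held the lowest value of 26 of the 32 genes. Against the mean of the other CNO input libraries, the median log2 difference of replicate 2 was -0.13 over the 32 genes and -0.05 over all genes. Microglial markers summed to 1210.2 CPM in vehicle input replicate 5 and to 408 CPM in replicate 3. The part of these cells in the input values was not tested.

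In IP the same plasma cell markers summed to between 3.39 and 12 CPM, highest in vehicle replicate 5 and lowest in vehicle replicate 3, with Tnfrsf17 at 0 to 3 reads per library. The sums overlapped between the injections, at 4.43 to 7.77 CPM in CNO IP and 3.39 to 12 CPM in vehicle IP. Oligodendrocyte markers ran the same way in vehicle IP, at 4763 CPM in replicate 3 and 11386 CPM in replicate 5, and summed to 6350 to 8513 CPM in CNO IP. Vehicle IP replicate 3 held the lowest value in its group of 22 of the 32 genes and replicate 5 the highest of 17, while 35.1% of all genes were highest in replicate 5. Against the mean of the other vehicle IP libraries, the median log2 difference of replicate 3 was -0.09 over the 32 genes and -0.01 over all genes. The part of these cells in the IP values was not tested. Without vehicle replicate 5, 20 genes rose and 1 fell in IP, with a median log2 fold change of 0.27, and without vehicle replicate 3, 19 rose and 1 fell, with a median of 0.23. Without vehicle replicate 5 in input, 1 rose and 0 fell, with a median of 0.13.

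**Figure D3:**
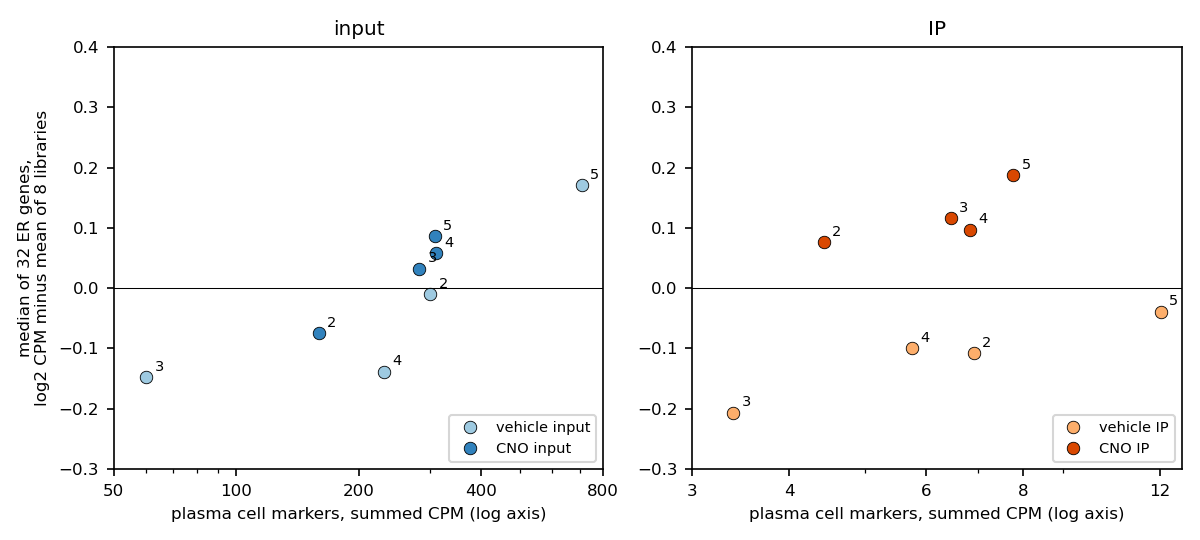
Median over the 32 genes of the difference from the mean of the 8 libraries of the same RNA type (log2 CPM, vertical axis) against the summed CPM of 4 plasma cell markers (horizontal, log axis), for input and IP, with replicate numbers beside the points. In input vehicle replicate 5 is highest on both axes and vehicle replicate 3 lowest on both. Vehicle input replicate 4 lies nearly as low as replicate 3 (-0.14 and -0.15) at a larger marker sum (231 and 60.0 CPM). In IP the 4 CNO libraries lie above 0 and the 4 vehicle libraries below it, over marker sums that overlap.

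Whether CNO acted differently on IP and on input was tested as an interaction over the 16 libraries. The effect was larger in IP for 7 of the 32 genes and smaller for 0, where 4.18% and 0.571% of the 16287 genes tested did so. The 7 were Txndc11 (difference of log2 fold changes 1.72, SE 0.09, adjusted p = 1.01e-08), Man1b1 (1.41, SE 0.08, adjusted p = 3.04e-08), Xbp1 (0.95, SE 0.17, adjusted p = 0.00224), Hspa5 (0.93, SE 0.13, adjusted p = 2.92e-04), Creld2 (0.75, SE 0.20, adjusted p = 0.0436), Manf (0.74, SE 0.11, adjusted p = 4.09e-04) and Hyou1 (0.38, SE 0.08, adjusted p = 0.00840). The call for Creld2 was lost in 8 of 16 alternatives, with adjusted p up to 0.149, and that for Hyou1 without vehicle replicate 2 (0.0536). With the mouse as a block the count was 10, and Dnajb11 (adjusted p = 0.0156), Sdf2l1 (0.0213) and Pdia6 (0.0223) were added.

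The ratio of IP to input CPM within each mouse shows the same difference. For Txndc11 it was 0.520, 0.585, 0.523 and 0.464 in vehicle mice and 1.84, 1.60, 1.58 and 1.89 in CNO mice, so the gene went from lower in IP to higher in IP. For Man1b1 it was 1.24, 1.22, 1.24 and 1.17 in vehicle mice and 3.52, 3.23, 2.86 and 3.37 in CNO mice. For Xbp1 it was 0.592, 0.653, 0.603 and 0.461 in vehicle mice and 1.24, 1.14, 1.02 and 1.03 in CNO mice. On this scale the CNO mice stood slightly above 1 for Xbp1 and the vehicle mice below it. The ratio of Xbp1 in CNO mice did not pass (adjusted p = 0.0678), nor did it in 14 of 17 alternatives. It passed with the mouse as a block (0.0400), and the lowest adjusted p among the alternatives was 0.0201. The side of this ratio depends on the scaling, with a log2 ratio of -0.07 under upper quartile scaling and -0.17 under total read scaling.

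**Figure D4:**
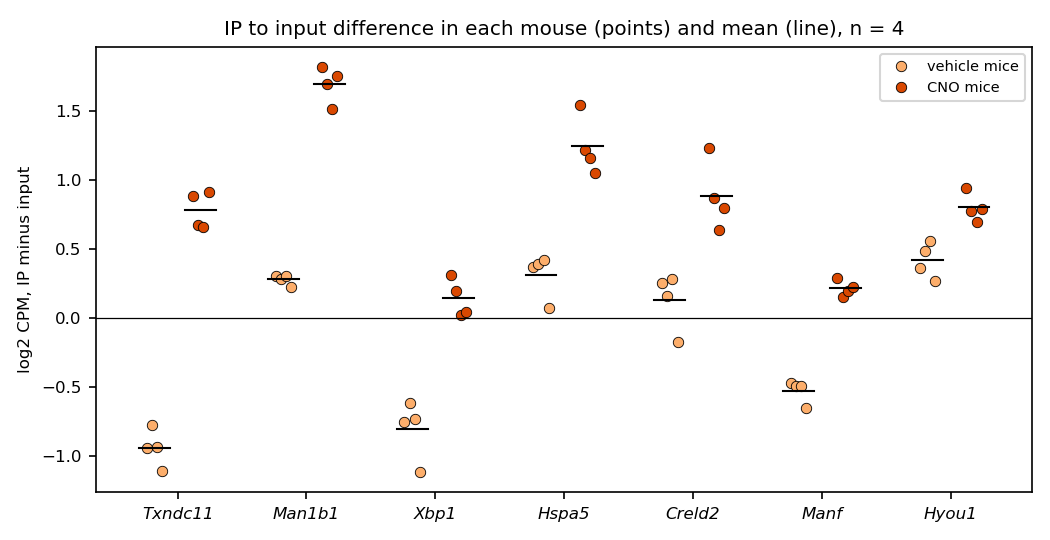
Log2 CPM in IP minus log2 CPM in input of the same mouse (points, 4 vehicle and 4 CNO mice) and the mean (lines), for the 7 genes whose CNO effect was larger in IP than in input. For each gene the 4 CNO points lie above the 4 vehicle points, and the vehicle points of Txndc11, Xbp1 and Manf lie below 0. Their CNO points lie above 0 on the deposited scale, but with total read scaling the mean is -0.17 for Xbp1 and -0.10 for Manf.

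The last comparisons ask which of these RNAs the capture took up. In vehicle mice 20 of the 32 genes were higher in IP than in input and 5 were lower, where 37.6% and 37.3% of the 15903 genes tested were so, and the median log2 ratio was 0.30 beside 0.00 for all genes. With upper quartile scaling the split was 15 and 6, and with scaling by total reads 12 and 7. These scalings moved the median of all genes to -0.15 and -0.26 and that of the 32 genes to 0.14 and 0.03; they shift every gene of a library by the same amount, so the gap between both medians cannot change with them. All IP libraries lay above all input libraries for 16 genes and below them for 5, as they did for 34.6% and 34.5% of all genes. With the mouse as a block the split was 22 and 6, and Dnajb11 (adjusted p = 0.00186), Edem1 (0.00121) and Sdf2l1 (0.000333, lower in IP) were added.

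The genes with the highest ratios in vehicle mice were 1 each of the co-chaperones, chaperones, sensors and isomerases. Dnajc3 stood at 215, 183, 214 and 195 CPM in IP and at 81.4, 77.6, 81.1 and 87.5 CPM in input (log2 ratio 1.30, SE 0.06, adjusted p = 9.68e-08). Canx stood at 1181, 1183, 1155 and 1316 CPM in IP and at 555, 558, 513 and 592 CPM in input (1.12, SE 0.06, adjusted p = 2.42e-07). Ern1 stood at 14, 13.1, 16 and 15.9 CPM in IP and at 7.46, 6.01, 7.15 and 10.4 CPM in input (0.95, SE 0.16, adjusted p = 3.75e-04). In these 3 genes and in Pdia4 every IP library was above every input library. Pdia4 stood at 189, 140.4, 175 and 176 CPM in IP and at 95.2, 72.2, 79.0 and 128 CPM in input (0.89, SE 0.18, adjusted p = 0.00173). Its highest input value was that of replicate 5.

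The lowest ratios were those of an isomerase, of Xbp1, of a translocon subunit and of a secreted factor. Txndc11 stood at 20.5, 21, 20.6 and 19.9 CPM in IP and at 39.4, 35.9, 39.5 and 42.8 CPM in input (log2 ratio -0.94, SE 0.06, adjusted p = 4.64e-07). Xbp1 stood at 71.1, 65.2, 67.0 and 77.3 CPM in IP and at 120.0, 100.0, 111 and 167 CPM in input (-0.80, SE 0.15, adjusted p = 9.02e-04). Sec61b stood at 10.4, 10.7, 9.80 and 11.4 CPM in IP and at 15.2, 14.2, 16.9 and 17.7 CPM in input (-0.60, SE 0.09, adjusted p = 1.53e-04). In each of these genes, and also in Manf and Atf6, all 4 IP libraries were below all 4 input libraries. Manf stood at 40.0, 35.9, 37.6 and 43.0 CPM in IP and at 55.3, 50.4, 52.9 and 67.7 CPM in input (-0.53, SE 0.09, adjusted p = 7.08e-04). The fifth gene lower in IP was Atf6, at 125, 118, 127 and 122 CPM in IP and 184, 169, 143 and 177 CPM in input (-0.45, SE 0.07, adjusted p = 4.20e-04), whereas Eif2ak3, at 52.3, 49.9, 51.9 and 55.0 CPM in IP and 35.0, 36.0, 35.2 and 37.5 CPM in input, was higher in IP (0.54, SE 0.05, adjusted p = 3.98e-06).

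In CNO mice 25 of the 32 genes were higher in IP and 2, Sec61b (log2 ratio -0.58) and Atf6 (-0.41), were lower, where 40.0% and 35.1% of the 15801 genes tested were so. The median was 0.58 beside 0.04 for all genes. The libraries did not overlap for 25 genes higher and 2 lower, as for 37.5% and 32.6% of all genes. With upper quartile scaling the split was 24 and 4, and with total read scaling 21 and 7, while the median of all genes stood at -0.17 and -0.27. With the mouse as a block 27 were higher and 2 lower, with Syvn1 (adjusted p = 0.0447) and Xbp1 (0.0400) added. Of the genes lower in IP in vehicle mice, Txndc11 (0.78, SE 0.07, adjusted p = 3.60e-06) and Manf (0.22, SE 0.05, adjusted p = 0.00221) were higher in IP in CNO mice. The Manf call held in only 15 of 17 alternatives, with adjusted p up to 0.970, and Manf stood at -0.10 with total read scaling. These comparisons share libraries with the CNO comparison in IP and are no separate evidence of it.

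To see how far the change in IP extended, 7 lists of other ER genes were counted, with 153 of 157 listed genes in the files. Of these 23 rose in CNO IP and 6 fell, where 10.2% and 7.07% of all genes did so. The list of the PERK arm and other stress factors moved most, with 8 of 17 higher, 1 lower and a median log2 fold change of 0.61. Ppp1r15a, which returns eIF2α to its unphosphorylated state, rose by 2.82 (SE 0.14), the transcription factor Atf4 by 1.57 (SE 0.08), the pseudokinase Trib3 by 1.40 (SE 0.33) and the transcription factor Ddit3 (CHOP) by 1.37 (SE 0.15). In input 2 genes of the 7 lists rose, Ppp1r15a (1.01, adjusted p = 5.20e-04) and Atf4 (0.46, adjusted p = 0.00152), and 0 fell.

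Of 27 genes of transport between ER and Golgi 7 rose and 1 fell (median 0.11), led by Sec24d, a cargo adaptor of the COPII coat (1.07, SE 0.09). Arfgap3, Sec24b and Sec24a followed at 0.35, 0.34 and 0.27. Of 31 other degradation genes 3 rose and 0 fell (median -0.01): the ubiquitin-conjugating enzymes Ube2j1 (0.65, SE 0.04) and Ube2g2 (0.38, SE 0.05), and Ubxn4 (0.17, SE 0.04). The share of these other degradation genes that rose was near that of all genes.

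Of 29 other chaperones and prolyl isomerases 2 rose and 3 fell (median -0.07), shares near the 10.2% and 7.07% of all genes. Cdnf, the close relative of Manf, fell by 0.50 (SE 0.13), the prolyl isomerase Fkbp10 by 0.31 (SE 0.07) and Cnpy2 by 0.25 (SE 0.05), and the calcium-binding protein Calu rose by 0.30 (SE 0.06). Manf and Cdnf thus moved in opposite directions in IP. None of 13 other ER oxidoreductases passed in limma (median 0.00). Of 19 genes of oligosaccharyl transfer and glucose trimming Dad1 rose (0.40, SE 0.04) and Ost4 fell (-0.23, SE 0.05), and of 17 other translocon and signal peptidase genes Srpr, the receptor of the signal recognition particle (0.31, SE 0.05), and Sec61a1, the channel itself (0.21, SE 0.05), rose. The shares of these last 3 lists that rose or fell were also near or below those of all genes.

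**Figure D5:**
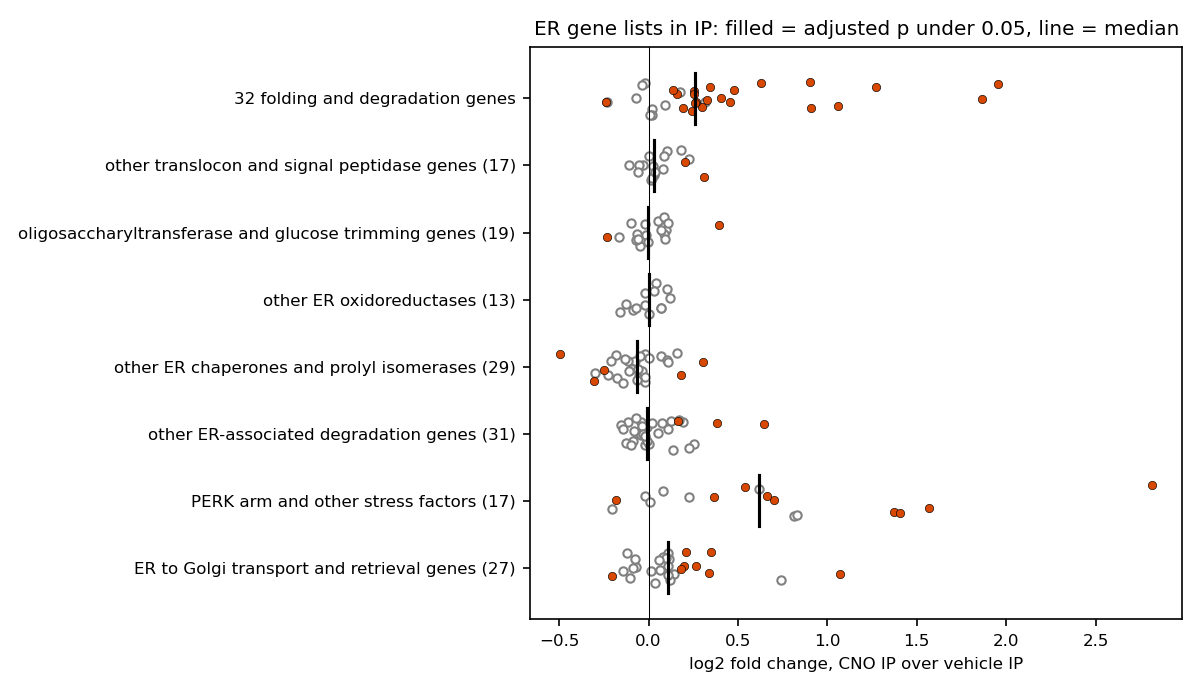
Log2 fold change, CNO IP over vehicle IP, of each gene (points) of the 32 genes and of 7 lists of other ER genes, with list sizes in parentheses and the median as a black line. Filled points had an adjusted p under 0.05, and the medians lie at 0.26 for the 32 genes, at 0.61 for the PERK arm and between -0.07 and 0.11 for the other lists.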

How the data were processed

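The 32 genes, the role groups and the lists of other ER genes were chosen with earlier results of these data known. Per the submitters' processing notes, reads were handled with bcl2fastq 2.17, STAR, HTSeq and limma on mm10. For the counting, strand setting and gene annotation: not given in the sources used here. Per the labels' protocols, 100 ng of RNA, enriched for mRNA, went into each paired-end library. The authors deposited log2 CPM, 17098 lines per library. A duplicate line was dropped, and 2 lines that share a date-like symbol are not named. Subtracting the constant of a gene without reads gave whole reads, within 0.01 read, which were used for depth, filters and limma-voom only. The fewest reads of a gene over the 16 libraries were 29, which shows a removal of genes with few reads before deposit. Replicates of a group differed by a median of 0.0733 to 0.186 on the log2 scale, and none was a copy of another.

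The tests were limma 3.58.1 (R 4.3.3; lmFit, eBayes with trend and robust) on the deposited log2 values, fitted over all genes with at least 15 reads and, in 4 libraries, a CPM equal to 10 reads in the median library. Only the groups compared entered a fit, and the interaction used all 16 libraries. P-values were adjusted by Benjamini-Hochberg, with a threshold of 0.05. The script was tested on simulated data. Genes given with the value of every library were the 10 largest calls of CNO in IP, the call in input, the 4 highest and 4 lowest calls of IP against input in vehicle mice, and Xbp1, Atf6, Ern1, Eif2ak3, Canx and Hspa5. Other values by library were added where a sentence turns on them. From each other list up to 4 calls of largest change were named.

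The mouse code pairs IP and input. Deviations from the group means of same-numbered libraries correlated at 0.308 to 0.678 in vehicle mice and at 0.393 to 0.615 in CNO mice, and each library correlated best with its own mouse in 4 of 4 cases. Values with this block stand beside the results they change. Alternatives were upper quartile and total read scaling, limma-voom, a prior count of 2, no filter, a filter of 1 CPM, eBayes without trend and robust, one fit over 16 libraries, each replicate left out and a replicate block. Overlapping genes were read from GENCODE M21 (GRCm38): 22 of the 32 genes overlap no gene with a proper name. The others overlap Atp6v1c2 (Pdia6), Catsper2 (Pdia3), Bmp6 (Txndc5), Snn (Txndc11), Dcaf1 and Rbm15b (Manf), Mrpl49 (Syvn1), Mis12 (Derl2), AA543186 (Man1b1) or only a microRNA (Dnajb9, Pdia4), and of these genes with values only Snn passed between CNO and vehicle.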

Additional observations from a re-analysis of the deposited data

Results flagged for a closer look

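In 8 of 128 sets of 4 values (32 genes in 4 groups) 1 library stood apart by Dixon's criterion for 4 values, and chance gives about 1 in 20. In CNO IP, Hsp90b1 stood at 752 CPM in replicate 5 (others 666 to 680), Calr at 542 CPM in replicate 5 (others 484 to 491), Dnajc3 at 268 CPM in replicate 3 (others 232 to 236) and Manf at 70.8 CPM in replicate 4 (others 73.7 to 74.3). In vehicle IP, Sdf2l1 stood at 15.8 CPM in replicate 5 (others 10.1 to 10.8). In CNO input, Pdia3 stood at 177 CPM in replicate 5 (others 154 to 158), Edem2 at 24.3 CPM in replicate 2 (others 28 to 28.7) and Sec61b at 19.0 CPM in replicate 3 (others 13.9 to 14.6).

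The CNO effect differed between IP and input by the interaction test for 7 genes. The difference of log2 fold changes was 1.72 for Txndc11, 1.41 for Man1b1, 0.95 for Xbp1, 0.93 for Hspa5, 0.75 for Creld2, 0.74 for Manf and 0.38 for Hyou1. The summed CPM of 7 astrocyte markers was 26363 to 32152 in the IP libraries and 2582 to 3395 in the input libraries, and the part of this enrichment in the differences was not tested.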

How the results depend on the processing

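The rises of Txndc11, Man1b1, Hspa5, Xbp1, Manf, Creld2, Sdf2l1, Herpud1, Hyou1, Pdia6, Dnajb11, Dnajb9 and Pdia3 in CNO IP passed in all 17 alternatives, and the rise of Man1b1 in input did so too. No result of the CNO comparisons turned its direction after a call. Upper quartile scaling left 4 genes lower in IP than in input in CNO mice and total read scaling 7, and total read scaling left 12 genes higher in IP in vehicle mice. Total read scaling turned the log2 ratio of IP to input in vehicle mice for Pdia6 (-0.0195), Dnajb9 (-0.10), Calr (-0.0193) and Txndc5 (-0.0194), which had passed, and for Herpud1 (-0.24), Edem2 (-0.24), Syvn1 (-0.16), Creld2 (-0.14) and Dnajb11 (-0.07), which had not, and in CNO mice for Manf (-0.10), Xbp1 (-0.17), Syvn1 (-0.15) and Txndc5 (-0.20). These scalings move all genes alike. With 1 library left out, 16 to 20 of the 32 genes rose in CNO IP and 0 to 1 fell, the latter 0 without CNO IP replicate 4, vehicle IP replicate 2 or vehicle IP replicate 4, 1 rose in input, 17 to 23 were higher and 5 to 6 lower in IP in vehicle mice, 25 to 26 higher in CNO mice, and the interaction passed for 5 to 8. Over all genes, 596 to 1213 fell in CNO IP and 4 to 27 in input, 85 to 155 rose in input, and 35 to 69 had a smaller effect in IP than in input. Genes that fell in CNO IP numbered 1946 with upper quartile scaling and 717 with the block. One fit over 16 libraries gave 105 genes that fell in input and the block 7. The genes with a smaller effect in IP numbered 198 with upper quartile scaling, 165 with total read scaling and 222 with the block.

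The replicate number did not pair CNO with vehicle libraries (correlations of deviations from -0.287 to 0.231 in IP and from -0.484 to 0.0187 in input; 1 of 4 and 0 of 4 best with their own number). As a replicate block it gave 17 of the 32 genes higher and 1 lower in IP, without Dnajc3, Sel1l, Ern1 and Atf6, and 1 higher and 0 lower in input. Each of the 32 genes held at least 262 reads in every library.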

Other observations

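Of the 19 tested genes with an ERSE within the 250 bases before the start site, 7 rose in CNO IP and 0 fell, where 10.2% of all genes rose and 7.07% fell. All 7 belong to the 32 genes, and of the 11 other genes with the element none passed in limma. The cAMP response element, TGACGTCA, was searched on both strands in the same windows and shares TGACGT with the TGACGTGG of Txndc11 and Txndc5. It was found in 1.55% of all promoters and in none of those of the 32 genes. Of the 348 tested genes that held it, 76 rose in CNO IP and 15 fell, where 10.2% of all genes rose and 7.07% fell.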
